A study of Mus musculus with 24 samples.

Results

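The genes described here encode the proteins of the cytosolic ribosome, measured by RNA sequencing in mouse bone marrow-derived macrophages (BMDM), which are macrophages grown from bone marrow in medium conditioned by L929 cells. They were chosen by symbol (Rps or Rpl followed by a digit, with Rplp0, Rplp1, Rplp2 and Rpsa), without S6 kinases, pseudogenes and entries that do not encode a protein, which left 86 of the 56941 gene IDs in the count table. Of the 391 rows with a matching symbol, 9 were S6 kinases, 289 carried a pseudogene suffix and 7 more were not protein coding. The 86 members comprise 77 canonical ribosomal proteins, 31 of the small and 46 of the large subunit. A further 8 are paralogs or retrogenes of these (Rpl3l, Rpl10l, Rpl39l, Rpl22l1, Rpl7l1, Rpl36al, Rps27l and Rps27rt). Rps19bp1 matches the symbol pattern but encodes a binding partner of Rps19 and is no ribosomal protein.

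Ribosomal proteins are made in matched amounts, and their mRNAs are among the most abundant of a cell. Most of these mRNAs begin with a 5′ terminal oligopyrimidine (TOP) tract, through which the kinase complex mTORC1 and the RNA-binding protein Larp1 control their translation and stability. In macrophages, lipopolysaccharide (LPS), the bacterial ligand of the receptor TLR4, redirects transcription and translation towards inflammatory products.

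The groups were macrophages after 6 h with 100 ng/ml LPS and untreated macrophages, each from knockouts of Hdac9 (KO), from cells with a deleted cis-regulatory element (dCIS in the labels), and from wild type (WT). The title of the series ties that element to Hdac9 expression. Hdac9 encodes a class IIa histone deacetylase. Each of the 6 groups had 4 libraries, 24 in all, and no label says that the 4 came from separate animals or cultures, so p-values reflect only how these libraries vary, which can be technical variation.

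Total counts per library were between 14636058 and 19181707. Levels are CPM, counts relative to a library size scaled by TMM (the trimmed mean of M values), given as mean ± SD of 4 libraries. A call means that edgeR gave an adjusted p under 0.05 over the 14757 genes tested, which included 84 members. Hdac9 averaged 1.04 ± 0.218 CPM in untreated KO and 0.302 ± 0.155 CPM in KO after LPS, against 11.2 ± 1.46 and 12.3 ± 2.83 CPM in WT. In dCIS it averaged 15.6 ± 2.23 CPM untreated and 14.6 ± 5.26 CPM after LPS. The 8 macrophage markers summed to between 15119 and 25483 CPM in each library. Markers of erythroid, mast and lymphoid cells summed to less than 1 CPM in each library, those of neutrophils to at most 5.30 CPM and those of dendritic cells to at most 2.47 CPM. The 9 fibroblast and endothelial markers summed to between 48.3 and 80.6 CPM after LPS and between 2.93 and 6.15 CPM untreated, and their part in the results on LPS was not tested. The 5 osteoclast markers summed to between 7.81 and 12.7 CPM in KO and between 15.1 and 17.5 CPM in WT after LPS, without overlap, and to between 10.00 and 14.5 CPM in KO and between 10.4 and 16.0 CPM in WT untreated. Of the 3 tested, 1 fell in KO after LPS, and their part in the results on KO was not tested. Libraries 3 and 4 of dCIS after LPS had 15997 to 17628 genes with a count, against at least 20458 in each other library, so the main results on dCIS after LPS are also given without them.

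The members together held a smaller share of the library after LPS in each genotype, and a smaller share in KO than in WT at both treatments. After LPS the 4 WT libraries had 1.65%, 1.84%, 1.96% and 1.62% of their counts on the members, against 2.77%, 3.01%, 2.83% and 2.62% in untreated WT. KO libraries had 1.29%, 1.31%, 1.38% and 1.40% after LPS, against 2.02%, 2.19%, 2.02% and 2.16% untreated. dCIS libraries had 1.60%, 1.38%, 1.41% and 1.22% after LPS, against 2.78%, 2.35%, 3.58% and 2.92% untreated. In no genotype did the LPS and untreated libraries overlap, and at neither treatment did KO and WT. The mean share was 1.77 ± 0.162% in WT after LPS and 2.80 ± 0.162% in untreated WT, 1.35 ± 0.0536% in KO after LPS and 2.10 ± 0.0903% in untreated KO, and 1.40 ± 0.154% in dCIS after LPS and 2.91 ± 0.510% in untreated dCIS. A share of bulk RNA cannot tell fewer members' transcripts per cell from more RNA of other genes, or from another mix of cells. The balance of the subunits moved little, with 0.685 to 0.716 small subunit counts for each large subunit count in the means after LPS and 0.692 to 0.721 untreated. In dCIS the mean was 0.721 untreated and 0.685 after LPS. The dCIS libraries 1 to 4 after LPS had 0.709, 0.701, 0.684 and 0.644.

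The share of counts from genes encoded in the mitochondrial genome differed between the same groups. It averaged 1.93 ± 0.228% in KO and 1.46 ± 0.178% in WT after LPS, without overlap, and 2.43 ± 0.196% in KO and 1.91 ± 0.358% in WT untreated, with overlap. Untreated dCIS library 3 had both the highest share of the members in the study and the lowest mitochondrial share, 0.958%. The part of this difference in the members' shares was not tested. Leaving mitochondrial genes and IDs without a symbol out of the total gave shares of 1.40 ± 0.0515% in KO and 1.83 ± 0.176% in WT after LPS, and 2.18 ± 0.0914% in KO and 2.92 ± 0.147% in WT untreated.

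**Figure D1:**
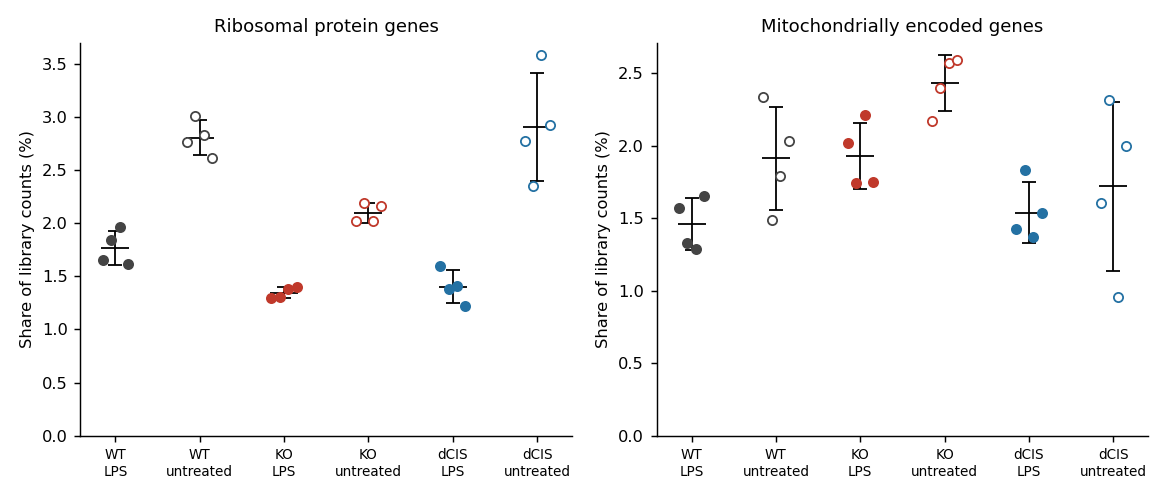
Share of each library's counts, in percent, on the 86 ribosomal protein genes (left) and on mitochondrially encoded genes (right). Each point is 1 library, filled after LPS and open untreated, with the mean and SD of 4 libraries. The ribosomal protein share lies between 1.22% and 1.96% after LPS and between 2.02% and 3.58% untreated.

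The first comparison asks how the members respond to LPS in WT, and its direction depends on the scaling. TMM gave LPS libraries factors of 0.695 to 0.826 and untreated libraries factors of 1.29 to 1.36. On the TMM scale 13 of 84 members rose and 1 fell, where 30.4% of all tested genes rose and 31.0% fell, and on library totals the sign turned and 81 of 84 fell, where 64.5% of all genes fell. The median member had a log2 fold change of 0.15 by TMM, against 0.00 for all genes, and of -0.66 on library totals, against -0.80 for all genes. Relative to the median gene the members thus lay at 0.14 on both scales. In WT 7 to 9 members were called without LPS library 2 or 3 or untreated library 1 or 4, and 5 rose and 4 fell by TMM without untreated dCIS library 3. The median was -0.02 by TMM computed with no filter on low counts. For this and later fits that left out 1 library, the share of all genes called was not counted. KO gave nearly the same picture, with 17 members higher and 1 lower by TMM (30.9% and 30.7% of all genes) and 80 lower on library totals (64.3%). Its medians were 0.17 and -0.64, against 0.02 and -0.80 for all genes. Without untreated dCIS library 3, 4 members rose and 6 fell by TMM in KO.

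In dCIS the members lay lower. By TMM none rose and 41 of 84 fell (31.3% of all genes rose and 33.3% fell), and on library totals 82 fell (64.0%). The median was -0.31 by TMM, against -0.05 for all genes. No member was without overlap between the LPS and untreated dCIS libraries, and the share of all genes without overlap was not counted. Without LPS libraries 3 and 4 of dCIS, 2 members rose and 12 fell (29.6% and 28.7% of all genes), with a median of -0.13. With the library size set to the summed members, the same libraries gave medians of 0.0055 for the members and 0.0596 for all genes. Fitting the 2 groups alone gave 16 lower (28.9% of all genes), and no filter on low counts gave 64 lower (16.3%). Without LPS library 4 alone, 2 rose and 21 fell. Untreated dCIS library 3 was the highest of its group for 77 of 84 members and library 2 the lowest for 78, and after LPS library 1 was the highest for 73 and library 4 the lowest for 74. The median coefficient of variation of the 77 canonical members was 17.6% in dCIS after LPS and 19.5% in untreated dCIS, against 6.18% and 5.79% in KO and 8.49% and 6.57% in WT.

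**Figure D2:**
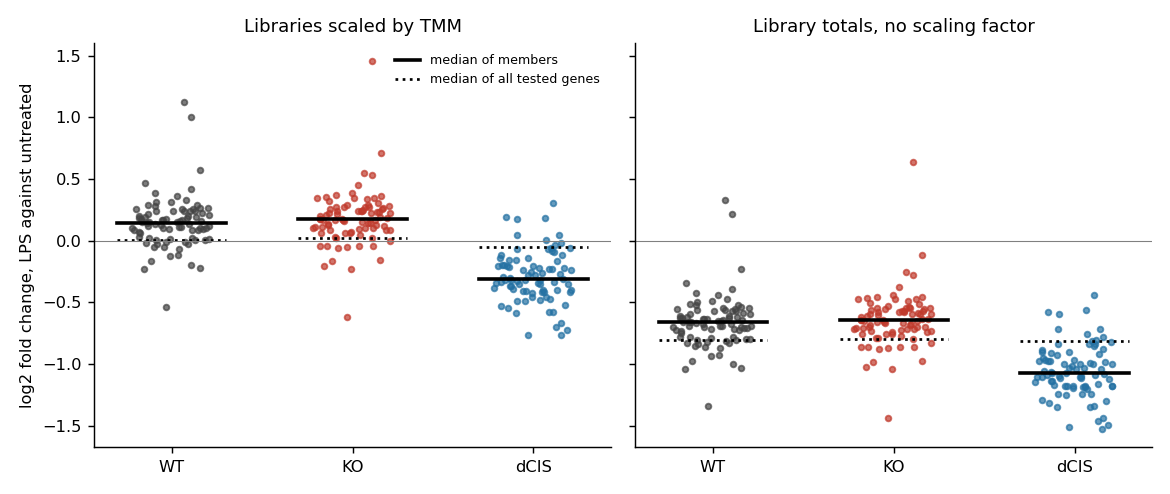
Log2 fold change of LPS against untreated for the 84 tested members in each genotype, with libraries scaled by TMM (left) and with library totals (right). Each point is 1 member, the solid line is the median of the members and the dotted line the median of all tested genes. WT and KO have medians above the dotted line on both scales and dCIS has medians below it. By TMM the medians are 0.15 in WT and 0.17 in KO, and on library totals they are -0.66 and -0.64.

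Rps24, a small subunit protein and in humans a gene of Diamond-Blackfan anemia, rose most in WT by TMM among the members called. WT libraries had 730, 816, 905 and 732 CPM after LPS, against 524, 568, 532 and 510 CPM untreated. All 4 LPS libraries lay above the untreated ones, with a log2 fold change of 0.58 by TMM (SE 0.136, edgeR adjusted p 0.000609), which turned to -0.23 on library totals. KO libraries had 560, 704, 565 and 609 CPM after LPS, against 358, 424, 332 and 377 CPM untreated (log2 0.71, SE 0.136, edgeR adjusted p 6.04e-05), and -0.11 on library totals. In dCIS the groups overlapped at 658, 598, 505 and 442 CPM after LPS against 536, 425, 730 and 539 CPM untreated.

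The other rises in WT by TMM, each of which was a fall on library totals, were smaller. Rpl15, a large subunit protein, averaged 98.1 ± 5.90 CPM after LPS and 70.9 ± 4.80 CPM untreated (log2 0.47, SE 0.116, edgeR adjusted p 0.000996; -0.34 on library totals). Rpl27 of the large subunit had a log2 fold change of 0.38, Rps20 of the small subunit 0.36, Rpl7 of the large subunit 0.33, and Rps9 and Rpl29 0.31 each. Of the 24 fits that each left out 1 library, 6 lost the call of Rps20, 7 that of Rps9 and 2 that of Rpl29. The calls of Rpl27 and Rpl7 were kept in each of them. Rps6, the target of the S6 kinases downstream of mTORC1, rose to 147 ± 15.3 CPM after LPS, against 122 ± 9.74 CPM untreated, by TMM (log2 0.27, edgeR adjusted p 0.0459), and had -0.54 on library totals. This call was lost in 16 of the 24 fits that each left out 1 library. Rpl7a, Rpl23, Rpl34 and Rpl6 of the large subunit had between 0.24 and 0.29 by TMM, Rpl23 being named after its values were seen. The call of Rpl34 was lost with the replicate number as a block within genotype (edgeR adjusted p 0.0533) and in 13 of the 24 fits that each left out 1 library. Rpl22l1, the paralog of Rpl22, had 0.42 by TMM with overlapping groups and -0.39 on library totals. Leaving out 1 library lost the call of Rpl22l1 in 7 of the 24 fits, that of Rpl23 in 2 and that of Rpl6 in 3. It kept that of Rpl7a. Of the 13 members higher in WT and 17 higher in KO, 12 were the same genes (92.3% of the WT list and 70.6% of the KO list).

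Rpl13a fell after LPS in all 3 genotypes by TMM, on library totals and relative to the summed members. It encodes a large subunit protein that, in human monocytic cells, leaves the ribosome after interferon-γ to join a complex that silences inflammatory mRNAs, and its introns hold small nucleolar RNAs. WT libraries had 10.6, 9.71, 10.9 and 6.79 CPM after LPS, against 14.5, 14.8, 13.6 and 12.1 CPM untreated. KO libraries had 7.42, 7.46, 6.85 and 7.18 CPM after LPS, against 9.15, 10.4, 13.6 and 11.4 CPM untreated. The groups did not overlap in either genotype, with log2 fold changes of -0.53 in WT (SE 0.179, edgeR adjusted p 0.0118) and -0.62 in KO (SE 0.185, edgeR adjusted p 0.00507). dCIS libraries had 9.00, 6.99, 12.2 and 8.83 CPM after LPS, against 14.4, 11.7, 21.5 and 15.5 CPM untreated (log2 -0.76, SE 0.179, edgeR adjusted p 0.000571), with overlap, and the log2 fold change was -0.98 without LPS libraries 3 and 4. A library held 80 to 434 counts of Rpl13a. The canonical members Rps10 and Rpl24, named after their values were seen, also had few counts, 37.4 and 8.96 per library on average, against a median of 3669.5 over the 86 members, and how the counting treated reads that also match copies of these genes was not tested.

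Changes within the pool were tested with the library size set to the summed counts of the members, so that a fold change is relative to the rest of them. In WT 3 members were higher and 6 lower than the pool after LPS, in KO 2 and 6, and in dCIS 7 and 10. Against this pool 23.6% of all genes were higher and 33.7% lower in WT. In KO these shares were 23.1% and 34.8%, and in dCIS they were 38.2% and 22.3%. Rps24 was the member higher in all 3 genotypes (log2 0.43 in WT, 0.53 in KO, 0.27 in dCIS), and Rpl13a and Rpsa were the members lower in all 3. Without LPS libraries 3 and 4 of dCIS, an alternative chosen after seeing the data, 8 members were higher and 8 lower than the pool in dCIS (29.7% and 23.3% of all genes). Rps24 then had 0.31, Rpl13a -0.84 and Rpsa -0.49 in dCIS, each past the test.

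Rpsa, which encodes a small subunit protein also known as the precursor of the laminin receptor, had pool-relative log2 fold changes of -0.37 in WT (SE 0.106, edgeR adjusted p 0.00401), of -0.34 in KO, and of -0.45 in dCIS. WT libraries had 310, 352, 375 and 263 CPM after LPS, against 376, 422, 378 and 342 CPM untreated, which overlap. KO libraries had 247, 235, 271 and 261 CPM after LPS, against 276, 269, 285 and 300 CPM untreated, which overlap as well. Rpl10a of the large subunit, named after its values were seen, was lower than the pool by log2 -0.30 in WT and -0.34 in KO. Of the 10 members lower than the pool in dCIS, Rplp1 of the stalk had -0.37 and Rps19, in humans the gene most often mutated in Diamond-Blackfan anemia, -0.28. Without LPS libraries 3 and 4 neither passed the test, at -0.20 and -0.17 (edgeR adjusted p 0.15 and 0.147).

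**Figure D3:**
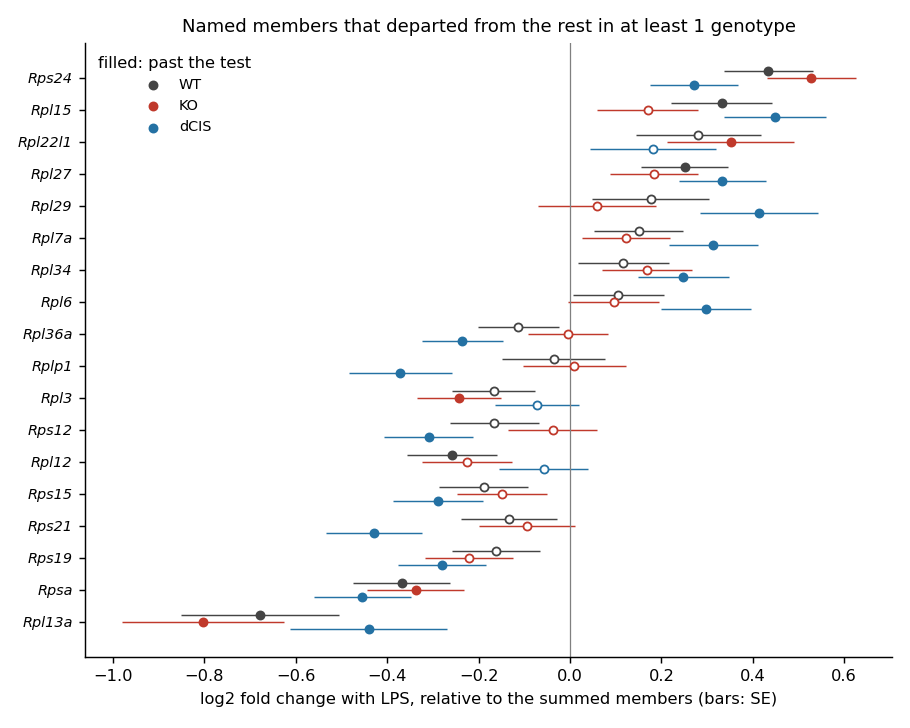
Log2 fold change with LPS relative to the summed members, with SE, for the 18 members named by rule that were past the test in at least 1 genotype (filled points). Rps24 lies right of 0 and Rpl13a and Rpsa left of 0 past the test in all 3 genotypes.

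The bases around the annotated start of 6 members that these results turn on are shown because the TOP tract lies there, from 20 bases before to 20 from the start on, from RefSeq on GRCm38.p6, which is not the build of the counts. Capitals mark a run of at least 5 pyrimidines that begins with C within 5 bases of the start, on the gene's own strand. Rps24, Rpl15, Rps6 and Rpl13a have such a run, and Rpsa and Rps7 have none that begins within 5 bases of the start shown. The Rps7 window does hold CTTCC further from the start. Other annotated starts of a gene, where there are any, are not shown.
Rps24 (chr14:24490658-24490697, plus strand): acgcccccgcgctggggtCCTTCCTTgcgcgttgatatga
Rpl15 (chr14:18270967-18271006, minus strand): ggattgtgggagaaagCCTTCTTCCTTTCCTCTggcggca
Rps6 (chr4:86857348-86857387, minus strand): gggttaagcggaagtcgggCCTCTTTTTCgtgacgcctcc
Rpl13a (chr7:45128726-45128765, minus strand): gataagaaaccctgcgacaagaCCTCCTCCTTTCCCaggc
Rpsa (chr9:120127746-120127785, plus strand): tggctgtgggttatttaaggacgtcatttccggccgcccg
Rps7 (chr12:28635934-28635973, minus strand): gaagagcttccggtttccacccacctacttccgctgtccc

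Of the 86 members, 66 matched a promoter entry of 250 bases before to 50 after a start, 57 of them canonical, and a gene counted if any of its starts matched. The pyrimidine run was found in 27 of the 57 canonical members (47.4%), against 21.2% of the 27025 genes in the table. CCGGAAG, an ETS-like motif, was in 24 (42.1%, against 9.93% of all genes) and GGGCGG, an SP1-like motif, in 35 (61.4%, against 38.2%), on either strand. AGATGGC, YY1-like, was in 7 (12.3%, against 7.31%), TATAAA in 6 (10.5%, against 15.7%) and the E-box CACGTG in 6 (10.5%, against 8.09%). These are matches of letters within a window. Members that rose and fell by TMM after LPS in WT were both among those with the run, Rps24 and Rpl13a being examples. On library totals Rps24 had a log2 fold change of -0.23 in WT.

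Knockout of Hdac9 went with lower levels across the pool. In untreated macrophages 83 of 84 members had a negative log2 fold change in KO against WT, with a median of -0.38, against 0.00 for all genes, and 38 fell by TMM while none rose (2.28% of all genes fell and 5.03% rose). In the same comparison 70 members had all 4 KO libraries below all 4 WT libraries, against 9.49% of all genes. On library totals the median was -0.42, against -0.04 for all genes, and 55 fell, against 3.41% of all genes. After LPS the median was -0.35, against 0.01 for all genes, and 2 members, Rps7 and Rpl28, fell and none rose (0.434% of all genes fell and 2.31% rose). Here 73 members had all KO libraries below all WT libraries, against 7.43% of all genes.

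The counts of calls differed between fits, and the cause was not tested. In fits of the 2 groups alone 72 members were lower in KO untreated and 73 after LPS, of 83 tested, against 7.1% and 6.32% of all genes. Those counts stayed between 50 and 75 untreated and between 41 and 73 after LPS when each library was left out in turn, an alternative chosen after seeing the data. In the fit of all groups the count untreated, 38 with each library in, fell to 0 when WT library 2 or 3, or KO library 1 or 3, was left out. It was 5 without KO library 4, 9 without WT library 1, 23 to 25 without LPS library 1 or 2 of WT, LPS library 1, 3 or 4 of KO or untreated dCIS library 4, and 59 without dCIS library 3. After LPS that count, 2 in the full fit, fell to 0 when LPS library 1, 2 or 3 of WT, or LPS library 1, 3 or 4 of KO, was left out. It was 19 without untreated dCIS library 2 and 58 without untreated dCIS library 3. The median stayed between -0.41 and -0.36 untreated and between -0.39 and -0.30 after LPS.

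Rps7, which encodes a small subunit protein that can bind Mdm2, fell in KO at both treatments. KO libraries had 136, 152, 136 and 145 CPM, against 193, 217, 199 and 186 CPM in WT, untreated (log2 -0.48, SE 0.117, edgeR adjusted p 0.0212). After LPS KO libraries had 150, 162, 159 and 169 CPM, against 212, 236, 231 and 203 CPM in WT (log2 -0.46, SE 0.117, edgeR adjusted p 0.0356). Every KO library lay below every WT library at both treatments. Rpl28 of the large subunit averaged 146 ± 8.81 CPM in KO and 189 ± 15.8 CPM in WT after LPS (log2 -0.37, SE 0.0978, edgeR adjusted p 0.0401), and 146.5 ± 11.7 CPM in KO and 174 ± 16.1 CPM in WT untreated (edgeR adjusted p 0.112).

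Among the other falls in untreated KO, Rpl36a of the large subunit averaged 119 ± 8.11 CPM in KO and 167 ± 8.93 CPM in WT (log2 -0.49, SE 0.118, edgeR adjusted p 0.0203). Rpl21 averaged 172 ± 9.88 CPM in KO and 225 ± 19.7 CPM in WT (log2 -0.39, edgeR adjusted p 0.0224), and Rpl12 of the stalk base averaged 236 ± 10.3 CPM in KO and 308 ± 21.2 CPM in WT (log2 -0.38). Rpl22, whose loss in mice raises its paralog Rpl22l1, averaged 147 ± 8.14 CPM in KO and 202 ± 16.0 CPM in WT (log2 -0.46, edgeR adjusted p 0.0251). Rpl22l1 fell as well, with 13.1 ± 0.955 CPM in KO and 19.9 ± 2.45 CPM in untreated WT (log2 -0.61, SE 0.175, edgeR adjusted p 0.0364). The proteins that hold back Mdm2 together with the 5S RNA, Rpl5 and Rpl11, fell by 0.37 and 0.36 on the log2 scale, and Rps3, which also takes part in DNA repair, by 0.35. Rpl29 was the canonical member nearest to no change, at -0.04 (SE 0.11).

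**Figure D4:**
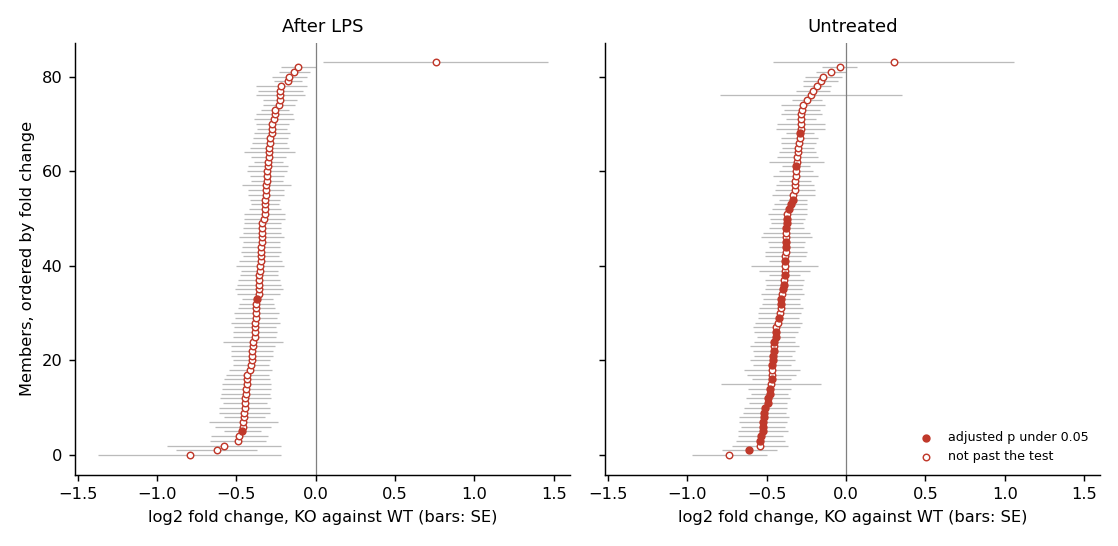
Log2 fold change of KO against WT with SE for the 84 tested members, ordered by size, after LPS (left) and untreated (right). Filled points passed edgeR at an adjusted p under 0.05, 2 after LPS and 38 untreated. All but 1 member lie left of 0 in each panel.

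Relative to the summed members, a scale that itself sets their median near 0, few differed between KO and WT. The medians on it were -0.0018 untreated and -0.0062 after LPS. The share of all genes called on that scale was not counted for KO against WT. After LPS edgeR called 0 members and 0 had an unadjusted p under 0.05, and 2 passed the test untreated, Rpl29 (log2 0.34, SE 0.129, edgeR adjusted p 0.0429) and Rpl7l1 (log2 0.29, SE 0.105, edgeR adjusted p 0.0389), both higher. The difference of the LPS response of KO from that of WT had a median of 0.03 over the members. edgeR called 0 members (0.0203% of all genes were called), 0 had an unadjusted p under 0.05, and DESeq2 called 0.

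In the fit of all libraries edgeR called no member in dCIS against WT at either treatment, while DESeq2 called some after LPS. In untreated dCIS against WT the median log2 fold change was 0.03. edgeR and DESeq2 called 0 members (0.00678% of all genes were higher and 0.0474% lower by edgeR), and 0 had an unadjusted p under 0.05 by edgeR. After LPS the median was -0.39, edgeR called 0 members (0.115% of all genes were higher and 0.142% lower), 71 had an unadjusted p under 0.05, against 13.1% of all genes, and DESeq2 called 24 lower, against 0.84% of all genes. All 4 dCIS libraries lay below all WT libraries after LPS for 42 members, against 4.57% of all genes, and libraries 1 and 2 alone for 43, against 11.5%. The second count could not be lower than the first, because it compares fewer libraries. Without LPS libraries 3 and 4 of dCIS the median was -0.23 and 15 had an unadjusted p under 0.05, against 10.6% of all genes. With no filter on low counts edgeR called 27 lower, and without LPS library 1 edgeR called 37 lower. It called 24 lower without untreated dCIS library 3 and 7 without untreated dCIS library 2. The share of all genes lower was not counted in these fits. The difference of the LPS response of dCIS from that of WT had a median of -0.42. edgeR called 0 members (0.0% of all genes), 57 had an unadjusted p under 0.05, against 7.85% of all genes, and DESeq2 called 0. Without libraries 3 and 4 the median was -0.27 and 6 had an unadjusted p under 0.05, against 9.29% of all genes.

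**Figure D5:**
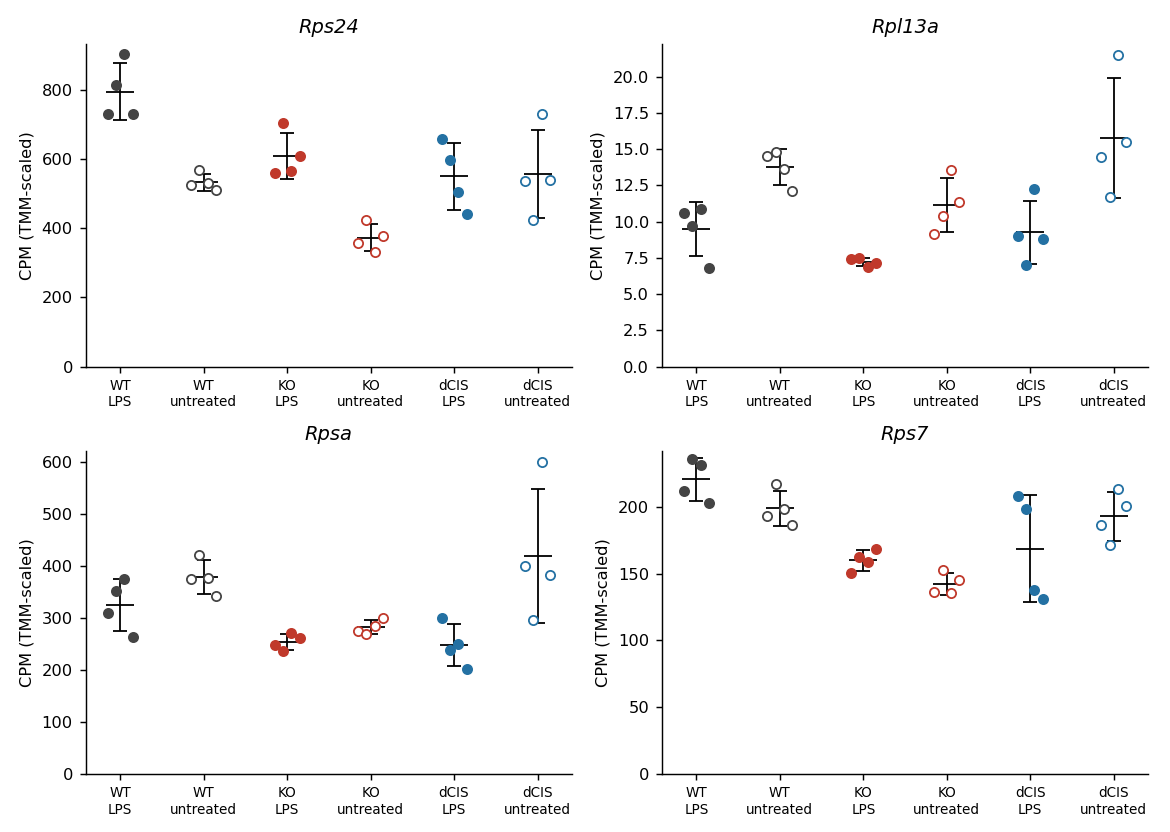
CPM on TMM-scaled libraries of Rps24, Rpl13a, Rpsa and Rps7 in the 24 libraries. Each point is 1 library, filled after LPS and open untreated, with the mean and SD of 4 libraries. Rps7 in KO lies between 136 and 169 CPM, below each WT library, which lie between 186 and 236 CPM.

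Among the paralogs, 2 had next to no counts. Rpl3l, a heart and skeletal muscle form, had at most 4 counts in a library and Rpl10l, a testis form, at most 2, and both failed the filter on low counts. Rpl39l, another testis form, had at most 16 counts, and its log2 fold change of 1.46 after LPS in KO had an SE of 0.698. Rps27l, a target of p53, averaged 96.4 ± 8.24 CPM in WT after LPS and 95.4 ± 5.01 CPM untreated, beside 120 ± 12.8 and 99.9 ± 8.12 CPM for Rps27. Neither passed the test in WT. Rps27rt, a retrogene of Rps27, had 14.8 ± 0.758 CPM in WT after LPS and 12.5 ± 1.91 CPM untreated, and its reads may be shared with Rps27. Rpl36al had 14 to 93 counts in a library, beside a level of 170 ± 13.7 and 167 ± 8.93 CPM for Rpl36a, and these near-identical copies may also share reads. Rpl7l1 had 75.8 ± 3.66 CPM in WT after LPS and 76.2 ± 4.41 CPM untreated, while Rpl7 rose by TMM and fell on library totals, as given above.

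By raw counts, which also depend on transcript length, Rpl4, Rplp0, Rplp1, Rpl41 and Rps24 led the members. Rpl4 of the large subunit averaged 881 ± 31.3 CPM in WT after LPS and 803 ± 52.3 CPM untreated, and the stalk protein gene Rplp0, a common reference gene in quantitative PCR, 679 ± 47.2 and 651 ± 26.8 CPM. Neither passed the test in WT, and Rplp0 had a log2 fold change of 0.06 by TMM and -0.75 on library totals. In untreated KO against WT it had -0.32 (SE 0.101, edgeR adjusted p 0.052). Rpl41 fell in untreated KO, with 369 ± 13.5 CPM in KO and 536 ± 44.8 CPM in untreated WT (log2 -0.54, SE 0.143, edgeR adjusted p 0.0281). Rpl38, needed in mice for translation of Hox mRNAs, averaged 183 ± 5.46 CPM in untreated KO and 263 ± 14.0 CPM in WT (log2 -0.52, edgeR adjusted p 0.0394), and Rpl26, which binds p53 mRNA, 236 ± 15.8 and 321 ± 14.4 CPM (log2 -0.44, edgeR adjusted p 0.0286).

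Around the members, several genes of translational control changed after LPS. The counts of the related lists in WT stand beside 30.4% of all genes that rose and 31.0% that fell by TMM. Larp1 rose to 969 ± 24.8 CPM in WT after LPS, against 205 ± 7.94 CPM untreated (log2 2.24 by TMM and 1.43 on library totals). Sesn1, an inhibitor of mTORC1, fell to 5.11 ± 0.532 CPM after LPS, against 116 ± 29.3 CPM untreated, and Eef2k, the kinase that restrains elongation, to 3.14 ± 0.596 CPM against 20.5 ± 3.46 CPM. Of 24 tested genes of mTORC1 and its translational outputs 6 rose and 12 fell, with a median of -0.37 by TMM and -1.18 on library totals. Of 30 initiation factors 18 rose and 3 fell by TMM, with a median of 0.30 and of -0.51 on library totals. Eif1a reached 218 ± 8.63 CPM after LPS, against 85.2 ± 3.53 CPM untreated, and its log2 fold change was 1.36 by TMM and 0.55 on library totals.

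Genes that build ribosomes were taken as a separate list. Of 54 genes of RNA polymerase I and ribosome assembly 9 rose and 26 fell in WT by TMM, with a median of -0.27 by TMM and -1.08 on library totals. Dkc1, which encodes the pseudouridine synthase dyskerin, fell to 3.44 ± 0.492 CPM after LPS, against 19.7 ± 2.45 CPM untreated. Sbds, a factor of large subunit maturation, rose to 354 ± 20.8 CPM, against 65.2 ± 3.00 CPM. Of 7 spliced hosts of small nucleolar RNAs 1 rose and 5 fell, with a median of -1.22 by TMM and -2.03 on library totals. Hosts of this kind, like most ribosomal protein mRNAs, are known for TOP tracts, and their own starts were not examined here. Gas5 fell to 30.7 ± 1.89 CPM, against 71.2 ± 8.29 CPM, and Zfas1 rose to 33.4 ± 2.04 CPM, against 15.0 ± 2.46 CPM.

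Of 22 other TOP mRNAs 10 rose and 3 fell in WT after LPS by TMM, with a median of 0.19 and of -0.62 on library totals. Of 12 genes of stalled ribosomes 5 rose and 5 fell by TMM, with a median of -0.07 and of -0.88 on library totals, and Ascc3, a helicase that splits collided ribosomes, reached 230 ± 27.9 CPM after LPS, against 41.6 ± 1.79 CPM untreated. Among 8 regulators of ribosomal protein transcription and p53, 5 rose and 3 fell by TMM, with a median of 1.03 and of 0.21 on library totals. Mxd1, which opposes Myc, rose to 322 ± 38.8 CPM, against 14.8 ± 2.60 CPM, and Max, the partner of both, to 479 ± 27.4 CPM, against 82.6 ± 2.73 CPM. Rack1, which encodes a small subunit protein outside the symbol rule, averaged 621 ± 25.2 CPM after LPS and 564 ± 23.3 CPM untreated and was not called in WT.

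In untreated KO against WT the members' median of -0.38 stood beside these medians of the related lists, and their counts beside 2.28% of all genes lower and 5.03% higher. The 76 mitochondrial ribosomal proteins had a median of -0.28, with 9 lower and none higher, and the 22 other TOP mRNAs a median of -0.15, with 3 lower and none higher. The 30 initiation factors had a median of -0.11, with 3 lower, and the 54 assembly genes -0.19, with 4 lower, while of the 24 mTORC1 genes 4 were higher (median 0.15). The 7 snoRNA hosts had a median of -0.54, with 2 lower. After LPS the mitochondrial ribosomal proteins had a median of -0.28 in KO against WT, with 3 lower, against 0.434% of all genes, and in WT after LPS against untreated 13 of the 76 rose and 22 fell by TMM, with a median of -0.07 and of -0.88 on library totals.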

How the data were processed

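Sequenced RNA of 24 libraries was deposited by the authors as 1 table of read counts per gene. The submitters' processing notes name STAR, edgeR and the build mm39, while for versions, the counting program, its strand setting and the annotation, no statement was found, so they stand as not given in the sources used. Members were found by symbol, and biotypes came from a GRCm38 annotation. The members and lists were chosen with earlier results of these data known. Deposited counts were analysed in R 4.3.3 with edgeR 4.0.16: filterByExpr (minimum count 10, minimum total 15), TMM scaling and the quasi-likelihood test on all 24 libraries with 1 term per group, adjusted by the Benjamini-Hochberg method over the 14757 genes tested. The steps were tested on simulated data. CPM were computed here from the deposited counts.

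Genes were named by rule: called members with the largest changes with LPS in WT, called members with the smallest adjusted p elsewhere, paralog pairs, the members with most counts, members with a known role outside the ribosome, and up to 4 called genes with the smallest p per related list. Alternatives were DESeq2 1.42.0, other scalings and filters, fits of the groups compared alone, the replicate number as a block, and leaving out each library. Same-numbered libraries of LPS and untreated groups deviated together in WT (correlations of 0.113 to 0.150) and in KO (0.155 to 0.296). In dCIS the correlations were 0.0396 to 0.339. In each genotype an LPS library correlated best with the untreated library of its own number. Library 1 of untreated KO and library 1 of untreated WT also correlated, at 0.188. Between untreated dCIS and WT the correlation was 0.154 for library 1 and 0.157 for library 3. Library 3 of dCIS and of WT after LPS had 0.154. The remaining same-numbered pairs of KO or dCIS with WT had -0.154 to 0.088. No label pairs the libraries, so a pairing by number was not established. No duplicate libraries were found. Some results are not reported here.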

Additional observations from a re-analysis of the deposited data

Results flagged for a closer look

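In 15 of 276 groups of 4 libraries examined, 1 library lay apart from the other 3 by Dixon's criterion at its 95% critical value, and chance flags about 5% of groups. Untreated KO library 2 accounts for 5 of them, each as the highest of its group, with 187 CPM of Rpl21, 107 CPM of Rpl39, 123 CPM of Rps21, 94.2 CPM of Rps27 and 13.3 CPM of Rps27rt. KO library 2 after LPS was apart for Rpl26 at 316 CPM, Rpl41 at 464 CPM and Rpl10l at 0.0898 CPM. Untreated KO library 3 was apart for Rpl22l1 at 14.5 CPM and library 4 for Rpl6 at 187 CPM. KO library 3 after LPS was apart for Rpl3l at 0.0836 CPM. dCIS library 1 was apart after LPS for Rpl21 at 227 CPM and untreated for Rpl3l at 0.188 CPM. WT library 1 after LPS was apart for Rpl10l at 0.163 CPM and untreated WT library 4 for Rpl41 at 469 CPM. The values of Rpl3l and Rpl10l are 1 to 4 counts.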

How the results depend on the processing

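The direction after LPS in WT and KO changed with the scaling, while in dCIS the median and in all 3 genotypes Rpl13a were lower by TMM and on library totals. On library totals 81 members were called in WT (median -0.66), 80 in KO (-0.64) and 82 in dCIS (-1.07), with 20 lower in KO against WT and 4 lower in dCIS against WT after LPS. Named members that turned in WT on library totals were Rps24 (-0.23), Rpl15 (-0.34), Rpl22l1 (-0.39), Rpl27 (-0.42), Rps20 (-0.44), Rpl7 (-0.47), Rps9 (-0.49), Rpl29 (-0.50), Rpl7a (-0.52), Rpl23 (-0.54), Rps6 (-0.54), Rpl34 (-0.55) and Rpl6 (-0.56). In KO those were Rps24 (-0.11), Rps6 (-0.46), Rpl34 (-0.47), Rpl7a (-0.52) and Rpl6 (-0.54). Relative to the summed members the calls numbered 9, 8 and 17 after LPS in WT, KO and dCIS, 2 and 0 for KO against WT untreated and after LPS, and 2 for dCIS against WT after LPS. The medians on that scale were -0.007 in KO and -0.013 in dCIS with LPS, -0.0018 and -0.0062 for KO against WT untreated and after LPS, -0.0247 for dCIS against WT after LPS and 0.0096 for the difference in response of dCIS. With no filter the calls numbered 6 in WT (median -0.0207), 7 in KO (median 0.02) and 64 in dCIS with LPS, 24 for KO and 27 for dCIS against WT after LPS, and 2 for the difference in response of dCIS. Fitting only the groups compared gave 26 calls in WT and 16 in dCIS with LPS, and 72 and 73 for KO against WT untreated and after LPS. Without LPS libraries 3 and 4 of dCIS together there were 22 calls in WT and 14 in dCIS (median -0.1311), 61 and 21 for KO against WT untreated and after LPS, and a median of -0.228 for dCIS against WT after LPS. For KO and for dCIS against WT after LPS, RLE size factors gave 4 and 2 calls, a stricter filter 5 and 1, and DESeq2 35 and 24. With a replicate block across the 6 groups these counts were 16 and 4. Within genotypes the block left 14 calls in WT, 22 in KO and 47 in dCIS with LPS, and 1 named call was lost, Rpl34 in WT at an edgeR adjusted p of 0.0533. No genotype comparison can be paired in that block. With the 50 most abundant other genes left out of the totals, the members' shares were 2.33% in WT, 1.77% in KO and 1.82% in dCIS after LPS, and 3.61%, 2.67% and 3.76% untreated. Leaving out each library in turn gave 7 to 17 calls in WT, 10 to 22 in KO and 23 to 59 in dCIS with LPS. It gave 0 to 59 and 0 to 58 for KO against WT untreated and after LPS, and 0 to 37 for dCIS against WT after LPS. In fits of the 2 groups alone, where leaving out libraries was added after seeing the data, these ranges for KO against WT were 50 to 75 and 41 to 73. The causes were not tested. The share of all genes called was not counted in fits that left out 1 library. Nor was it counted for the other fits of this section whose share is not given above. Those counts of members therefore have no rate over all genes to stand beside. Counts of Rpl24, Rpl3l, Rpl10l and Rpl39l limit their values.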
